A study of Mus musculus with 16 samples.

Results

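The livers of 4 mice carrying the H/A allele of the ceramide synthase 2 gene were compared with those of 4 wild-type (WT) mice, on 8 of the 16 arrays of the series, with 1 mouse per array. The arrays were assigned by the condition given in the labels, HA or WT. H/A, which the labels write CerS2 H/A, is read here as an exchange of a catalytic histidine for alanine, although the labels name no residue. The WT mice carried the unaltered gene. The mice of both groups were male, 6 weeks old and of a mixed background, 75% C57BL/6 and 25% SV129. The other 8 arrays came from 4 Del mice (condition delHox) and 4 Flox mice (condition delneo) of the same age, sex and background, whose alleles the labels do not describe. They shared the estimate of the spread in 1 model, and Del was set against H/A once. The p-values measure the spread between these mice, whose litters the labels do not give.

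Ceramide synthases join a fatty acyl chain to a sphingoid base, and each member of the family prefers acyl chains of certain lengths. CerS2 uses very long chains and is the most abundant ceramide synthase of the liver. Mice lacking it are known for altered liver sphingolipids, liver injury with regenerative growth and liver tumours. The comparison asks which transcripts differ in livers with the H/A allele, read here as a change of the catalytic site. Whether the altered protein is made was not measured.

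The value of a gene is given as its level, the log2 of the scanner signal after the authors' quantile normalisation, and a difference is H/A minus WT on that scale. On the 8 arrays 55.5% to 65.2% of the spots were well above background and 0 were saturated. Before scaling, the 75th percentile of the signal was 109.3 to 173.1 on the H/A arrays and 89.7 to 98.8 on the WT arrays, so the H/A arrays were brighter, and how far this enters the differences was not tested. The hepatocyte markers Alb and Ttr, which encode plasma albumin and transthyretin, lay between 15.99 and 16.51 on all 8 arrays. Over the 11 hepatocyte markers tested, the mean level was 14.13 to 14.33 in H/A and 14.27 to 14.36 in WT. No probe could be paired with Cers2 itself, so the genotype labels could not be checked on the altered gene. Slide 1 held H/A replicates 1 to 3 and WT replicates 1 and 2, and slide 2 held H/A replicate 4 and WT replicates 3 and 4. Slide and genotype overlap only in part, and values within each slide are given below. Those within slide 2 rest on 1 H/A mouse, so slide cannot be told apart there from that mouse.

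H/A livers differed from WT livers at 3166 of 31480 genes tested (10.1%), at a Benjamini-Hochberg adjusted p under 0.05 in limma. Of these, 2230 (7.08% of those tested) were higher in H/A and 936 (2.97%) lower. Over 4-fold, 243 genes were higher and 80 lower, and over 8-fold 54 and 40, while 1971 of the called genes differed by less than 2-fold. The 4 H/A values lay wholly above or below the 4 WT values at 5251 genes (16.7%), among them 1855 of those called higher and 810 of those called lower. Most called genes thus do not overlap, and those named below were chosen in part for it. Where it is given for single genes it describes their values and is no further support. The median difference of all genes was -0.09. Without scaling between arrays it was 0.37 and 98.7% of 9542 calls were higher, against 70.4% here, and without WT replicate 2 it was 47.2% of 8021. With 1 array left out in turn, 1211 genes were called in all 16 fits.

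**Figure D1:**
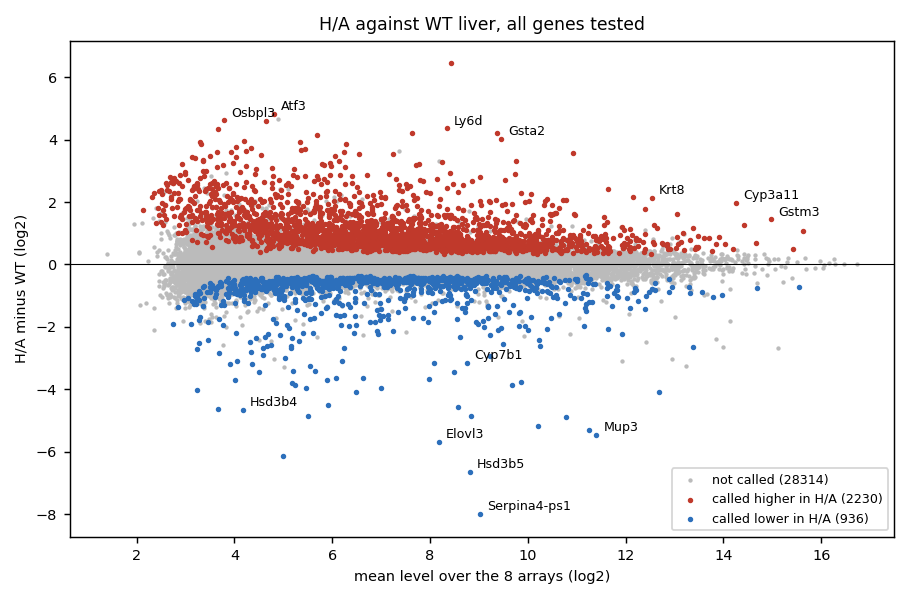
Difference H/A minus WT (log2, vertical axis) against the mean level over the 8 arrays (log2, horizontal axis), 1 point per gene. Red points are the 2230 genes called higher in H/A, blue points the 936 called lower and grey points those not called. The falls reach further down (Serpina4-ps1 at -8) than the rise of Ly6d reaches up (4.37).

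Among the genes that rose furthest, Osbpl3 encodes an oxysterol-binding protein relative that binds membrane lipids. Its level was 5.99, 6.07, 6.64 and 5.69 in H/A and 1.44, 1.65, 1.44 and 1.38 in WT. Every H/A array was well above background and 0 of 4 WT arrays were, which makes it at least 5.85-fold higher (adjusted p = 4.84e-06). Ly6d, a surface protein of the LY6 family, stood at 9.71, 10.75, 10.46 and 11.2 in H/A and at 6.17, 5.85, 6.18 and 6.45 in WT, a rise of 4.37 (95% interval 3.61 to 5.12, adjusted p = 1.07e-05). For both genes the lowest H/A mouse lay far above the highest WT mouse. Golm1, a Golgi membrane protein known as a marker of liver disease, read 7.33, 8.66, 8.9 and 8.37 against 4.83, 5.05, 4.92 and 4.34, a rise of 3.53 (2.79 to 4.27, adjusted p = 5.6e-05). The galectin gene Lgals1 rose by 2.30 (1.89 to 2.71, adjusted p = 1.59e-05), and Cd63, a tetraspanin of lysosomes and late endosomes, by 3.31 (2.45 to 4.17).

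Some of the steepest rises were genes with little or no signal in WT liver. Eif4e3, a relative of the cap-binding translation factor, was at least 7.99-fold higher, Rragd, a RAG GTPase that links lysosomal amino acids to mTORC1, at least 4.6-fold, and Acot9, a mitochondrial acyl-CoA thioesterase, at least 3.86-fold. Lysmd2 was at least 10.5-fold higher, but its level was 9.8 in H/A replicate 4 and 5.09 to 6.51 in the other H/A mice. In all, 75 genes were well above background on the 4 H/A arrays and on 0 of the WT arrays, and 68 of them were called. The reverse held for 16 genes, of which 9 were called. Fndc10 read 6.22, 7.74, 8.34 and 6.88 in H/A and 3.6, 3.84, 2.77 and 3.26 in WT, where 1 of 4 arrays was well above background (3.93, adjusted p = 8.65e-05). Uap1l1, a relative of the enzyme that makes UDP-N-acetylglucosamine, rose by 3.20 (2.54 to 3.87), with 1.61 to 3.20 over its 3 probes. Smoc2, a secreted calcium-binding matrix protein, rose by 3.23 (2.34 to 4.11) and Igfbp1, a secreted binding protein of insulin-like growth factors, by 2.43 (1.69 to 3.17).

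**Figure D2:**
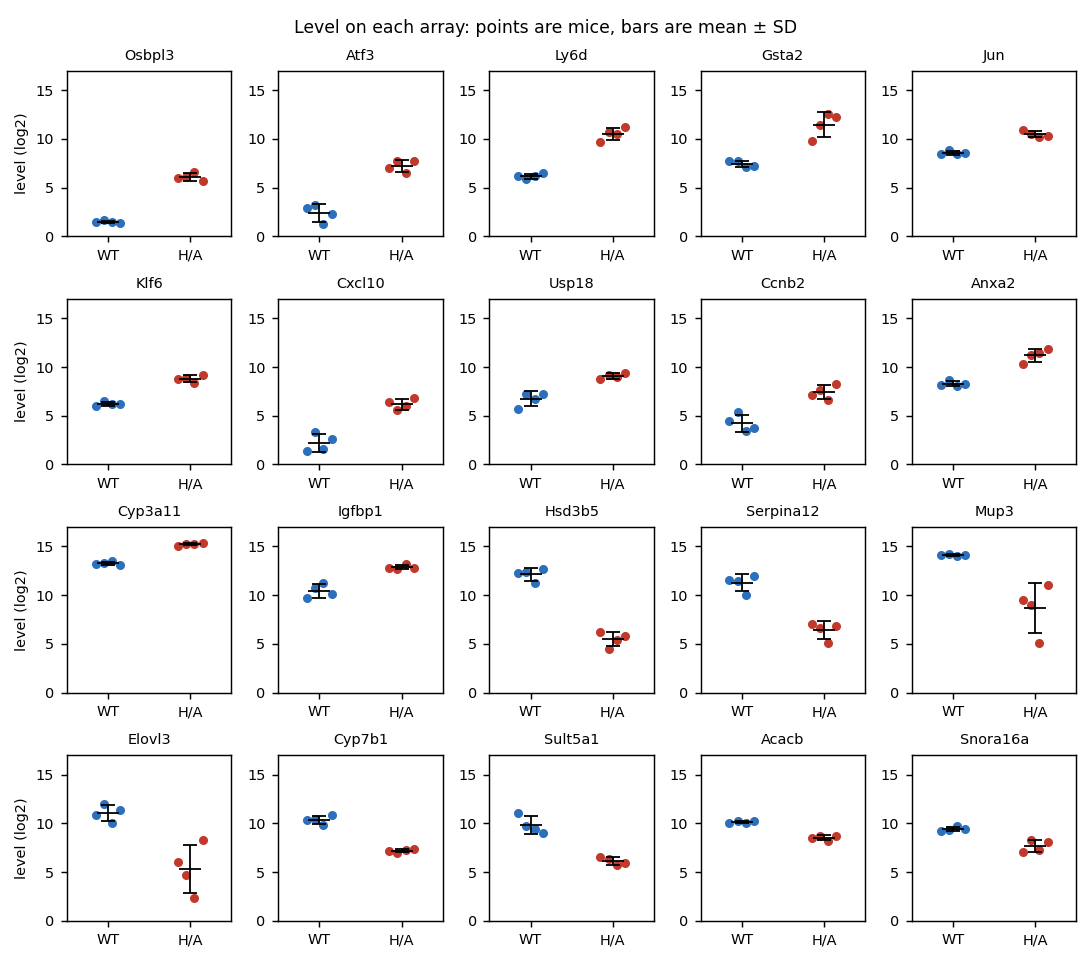
Level (log2, vertical axis) of 20 genes on each array, blue for WT and red for H/A, with the mean ± SD of 4 mice in black. In every panel the 4 H/A points lie apart from the 4 WT points, and among the H/A mice Mup3 and Elovl3 spread most (SD 2.56 and 2.48). The genes shown were chosen from these data, in part for values that do not overlap, which held at 16.7% of all genes tested.

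Genes of cell division rose as a group, with the largest share of rises among the pathway lists. Of 36 genes of mitosis and the spindle, 27 rose and 0 fell, with a median of 2.27 against -0.09 over all genes. Their mean level was 6.32, 6.75, 6.17 and 7.10 in H/A and 4.67, 5.33, 4.24 and 4.56 in WT, so that every H/A mouse lay above every WT mouse. The median was 1.60 within slide 1, 3.04 within slide 2 and 0.68 with the normexp background correction. With 1 array left out, 23 (without H/A replicate 2) to 28 members rose, and 3 fell without WT replicate 2. Cyclin B2, which activates the mitotic kinase CDK1, is encoded by Ccnb2, whose level was 7.13, 7.69, 6.58 and 8.28 in H/A and 4.43, 5.36, 3.39 and 3.77 in WT (3.18, interval 2.23 to 4.14, adjusted p = 0.000712). Top2a, the topoisomerase that untangles chromosomes, read 7.19, 8.06, 7.46 and 8.53 against 3.78, 6.12, 3.89 and 4.14 (3.33, adjusted p = 0.000852). The H/A and WT values did not overlap for either gene, WT replicate 2 was the highest WT mouse, and 3 of 4 WT arrays were well above background. Cdca3, which triggers entry into mitosis, rose by 2.87 (2.03 to 3.70), 2.18 within slide 1 and 4.10 within slide 2. Cdkn3, a CDK-binding phosphatase, rose by 3.71 (0.36 for its other probe), with 1 of 4 WT arrays well above background, and Ccnb1, which encodes the related cyclin B1, by at least 3.74-fold. The kinase gene Aurkb was well above background on 3 H/A arrays and 0 WT arrays, and Ttk, the gene of a spindle checkpoint kinase, on 2 and 0.

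The starts of mitotic genes often carry a cell cycle homology region, the letters TTTGAA, through which their transcription is held back outside division. It was searched on both strands from 250 bases before to 50 after each RefSeq gene start (GRCm38.p6). The promoters of 4 of the 6 mitotic genes with the smallest p are shown with these letters in capitals, as TTTGAA or, where they lie on the other strand, TTCAAA.
Cdca3: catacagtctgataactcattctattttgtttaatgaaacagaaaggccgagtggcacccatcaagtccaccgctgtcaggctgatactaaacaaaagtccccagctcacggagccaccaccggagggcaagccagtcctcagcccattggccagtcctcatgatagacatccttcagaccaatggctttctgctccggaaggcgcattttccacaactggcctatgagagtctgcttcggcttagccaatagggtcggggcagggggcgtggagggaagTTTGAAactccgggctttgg
Ttk: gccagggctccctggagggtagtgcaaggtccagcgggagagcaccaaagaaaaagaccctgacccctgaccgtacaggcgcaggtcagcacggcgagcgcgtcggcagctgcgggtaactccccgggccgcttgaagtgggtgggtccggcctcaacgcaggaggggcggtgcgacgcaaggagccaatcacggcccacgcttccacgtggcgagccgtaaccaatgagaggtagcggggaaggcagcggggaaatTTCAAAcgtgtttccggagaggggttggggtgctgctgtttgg
Ccnb2: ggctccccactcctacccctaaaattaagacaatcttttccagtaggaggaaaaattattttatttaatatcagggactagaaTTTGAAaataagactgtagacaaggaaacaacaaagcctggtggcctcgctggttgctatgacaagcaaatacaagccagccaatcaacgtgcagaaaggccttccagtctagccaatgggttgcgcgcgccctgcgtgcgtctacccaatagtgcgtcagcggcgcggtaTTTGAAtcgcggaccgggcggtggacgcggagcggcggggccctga
Top2a: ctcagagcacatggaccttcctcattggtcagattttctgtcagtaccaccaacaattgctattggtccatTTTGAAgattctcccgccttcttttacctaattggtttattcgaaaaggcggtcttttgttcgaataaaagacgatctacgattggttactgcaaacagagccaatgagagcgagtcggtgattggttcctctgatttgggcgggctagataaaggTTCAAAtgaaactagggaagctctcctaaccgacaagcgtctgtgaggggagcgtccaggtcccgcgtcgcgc
These are, in the same order, chr6:124829926-124830225 on the plus strand, chr9:83834439-83834738 on the plus strand, chr9:70421505-70421804 on the minus strand and chr11:99024140-99024439 on the minus strand. Aurkb is not shown, and Cdkn3 also held a match. The letters stood in 23 of 30 promoters of tested mitosis genes (76.7%), in 15 of 22 of those that rose (68.2%) and in 14.2% of the 12094 promoters of all genes tested. Mitosis genes hold them whether or not they rose, and among all genes that rose the share was 14.8%. The letters CCAAT, the binding site of NF-Y, stood in 23 of 30 (76.7%) against 38.4% of all promoters.

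Genes of DNA replication rose with them, 19 of 30 with 0 falling (median 1.12, 0.55 within slide 1, 1.49 within slide 2 and 0.45 with normexp). The MCM helicase that unwinds DNA was represented by Mcm2, at 7.14, 7.78, 8.08 and 8.29 in H/A and 5.89, 5.95, 5.51 and 5.13 in WT (2.20, interval 1.58 to 2.83, adjusted p = 0.000499). Mcm3, Mcm4 and Mcm5 rose by 1.32, 1.63 and 1.85, and 5 of 8 genes of the family rose. Cyclin D1, which drives entry into the cycle, is encoded by Ccnd1, at 10.53, 9.84, 10.36 and 10.19 in H/A and 8.27, 8.28, 7.91 and 8.45 in WT (2.00, adjusted p = 0.0003). Both genes were higher in every H/A mouse than in any WT mouse. Gins2, a helicase partner, was at least 2.72-fold higher, Rrm1, a subunit of the ribonucleotide reductase, rose by 1.29, Chaf1a, which loads histones behind the fork, by 1.69, and Uhrf1, which passes on DNA methylation, by 2.65 (1 of 4 WT arrays well above background). Of 45 replication-dependent histone genes 16 rose and 3 fell, led by H2ac10 (1.61, interval 1.08 to 2.13) and H3c4 (0.77, 0.51 to 1.03), whose near-identical copies the probes may not tell apart. Of 19 centromere protein genes 8 rose and 0 fell, among them Cenpa, the gene of the centromeric histone, by 1.20 (0.74 to 1.66).

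Interferon-induced genes were another group in which most members rose, 22 of 32 with 1 falling (median 1.1, 0.92 and 1.49 within slides 1 and 2, 0.72 with normexp). Their mean level was 7.23, 7.80, 7.87 and 7.98 in H/A and 6.02, 6.98, 6.29 and 6.68 in WT, with no overlap. With 1 array left out the rises numbered 13 (without WT replicate 3) to 24, and 14 members were called without H/A replicate 2. Usp18, a protease that removes ISG15, read 8.72, 9.23, 8.97 and 9.38 in H/A and 5.67, 7.28, 6.75 and 7.28 in WT (2.33, interval 1.72 to 2.93, adjusted p = 0.00028). The lowest H/A value exceeded the highest WT value. The antiviral synthetase gene Oas1g rose by 1.79, its relative Oasl2 by 1.66 (1.14 for the other probe) and the GTPase gene Gbp7 by 1.27. Ubd, the gene of a ubiquitin-like protein, read 5.96, 7.2, 9.78 and 8.08 against 3.22, 3.4, 3.67 and 4.17, with 1 of 4 WT arrays well above background (4.14, adjusted p = 0.00116). Ifi27l2b rose by 3.28 (2.61 to 3.96). Cxcl10, the gene of a chemokine that draws T cells, was at least 6.18-fold higher. Other chemokine genes that rose were Ccl2 (2, with 1 of 4 WT arrays well above background), Ccl5 (2.25) and Ccl6 (2.31), and in all 5 of 21 chemokine genes rose and 1 fell, with a median of 0.03. Of 16 genes of antigen presentation 6 rose and 0 fell, including the class I genes H2-T23 (1.12) and H2-D1 (0.79), and outside that list H2-Q1 rose by 3.16. Without H/A replicate 2, 3 of the 16 rose.

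Of 26 genes of TNF receptor and NF-kappaB signalling 10 rose and 0 fell (median 0.59), with 6 (without WT replicate 4) to 13 over the left-out arrays. Tnfrsf12a, the receptor of the cytokine TWEAK, read 8.75, 9.42, 9.03 and 9.8 in H/A and 6.81, 7.82, 6.52 and 7.4 in WT (2.11, interval 1.46 to 2.77, adjusted p = 0.000893). Icam1, the gene of a leukocyte adhesion molecule, rose by 1.5 (1.04 to 1.97), Tnfaip3, a feedback inhibitor of NF-kappaB, by 1.41 and the NF-kappaB subunit gene Nfkb2 by 1.17. The values of the 4 genes did not overlap between groups, which held at 16.7% of all genes tested. Il1rn, the gene of the interleukin 1 receptor antagonist, rose by 2.73 (1.65 to 3.80). Of 24 acute phase genes 4 rose and 4 fell, but 2 rose and 0 fell without H/A replicate 2, 3 rose and 0 fell without H/A replicate 3, and 4 or 5 were called without WT replicate 1 or 4. Among them C3, the central complement component, rose by 0.68.

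Markers of macrophages were higher in the same livers. Of 14 markers of resident Kupffer cells, the macrophages of the liver, 7 rose and 0 fell (median 0.71), and their mean level was 8.53 to 9.16 in H/A and 7.76 to 8.44 in WT. Adgre1, the gene of the surface protein F4/80, read 6.52, 6.95, 7.33 and 7.23 in H/A and 4.74, 6.09, 5.4 and 4.99 in WT (1.70, interval 1.09 to 2.31, adjusted p = 0.00213). Cd5l, Vsig4 and Clec4f, further Kupffer cell genes, rose by 1.32, 1.21 and 1.1. Of 12 markers of recruited or lipid-associated macrophages 6 rose and 0 fell (median 1.09, 0.48 within slide 1 and 2.12 within slide 2), with mean levels of 7.58 to 8.14 and 6.67 to 7.38. Lgals3, the gene of galectin 3, rose by 2.94 and Lpl, the gene of lipoprotein lipase, by 1.92, while Tyrobp, a general myeloid adaptor, was at -0.43 and was not called. Of 10 neutrophil markers 3 rose (1 without H/A replicate 3 or WT replicate 3), led by S100a8 (2.15), with mean levels of 6.14 to 6.71 and 5.53 to 5.9. In a piece of whole liver, fewer cells of a type and less RNA per cell cannot be told apart, and neither can more cells and more RNA. The part of these cells in the rises of the interferon, antigen presentation, chemokine and lysosome groups was not tested. Of other cell types, sinusoidal endothelial markers (14 tested) and cholangiocyte markers (8 tested) held 0 calls in limma, stellate cell and fibroblast markers 2 of 14, led by Rgs5 (1.13), and lymphocyte markers 1 of 11, and counts this small moved with single arrays (1 to 5 and 0 to 1).

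**Figure D3:**
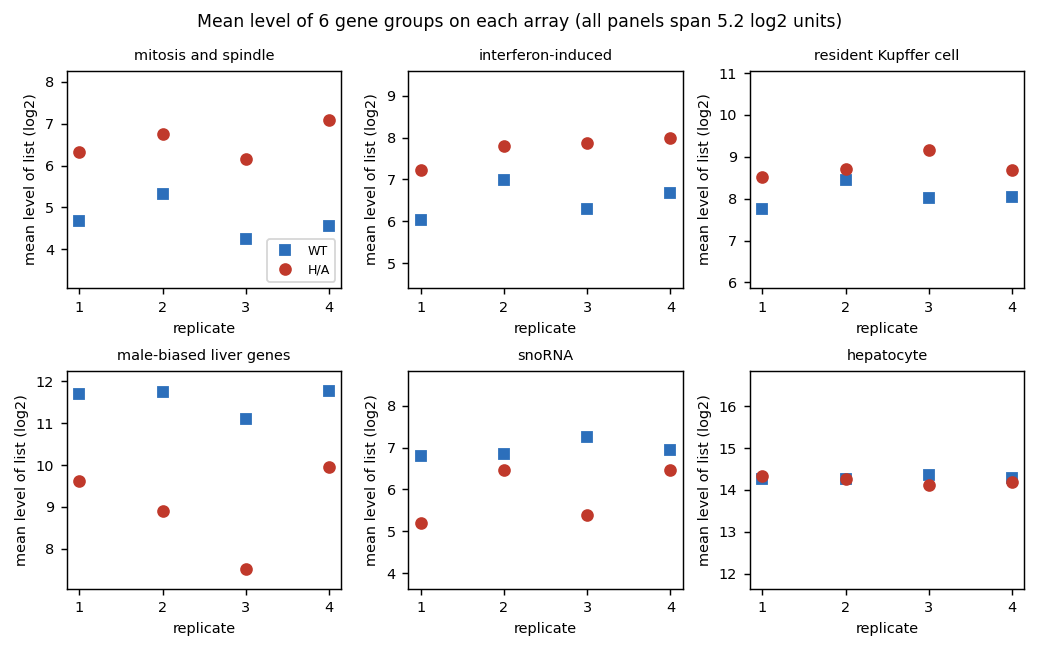
Mean level (log2, vertical axis) of 6 gene groups on each array, by replicate number (horizontal axis), squares for WT and circles for H/A. The mitosis, interferon-induced and Kupffer cell groups are higher in all 4 H/A mice, male-biased and small nucleolar RNA genes are lower in all 4, and the hepatocyte markers overlap (14.13 to 14.33 against 14.27 to 14.36).

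Immediate-early factors were higher too. These are transcription factors that cells make within minutes of stress or growth signals. Of 22 AP-1, ATF and related genes, 12 rose and 0 fell (median 1.00), and 7 were called without H/A replicate 2 or without WT replicate 4. Atf3, a repressor induced by many stresses, read 7.05, 7.68, 6.46 and 7.72 in H/A and 2.89, 3.23, 1.23 and 2.24 in WT, where no array was well above background, and was at least 12.8-fold higher (adjusted p = 3.61e-05). Jun, the gene of the AP-1 subunit c-Jun, read 10.87, 10.54, 10.23 and 10.34 against 8.49, 8.81, 8.42 and 8.51 (1.94, interval 1.62 to 2.26, adjusted p = 8.57e-06). The 4 mice of each group lay close together, and Jun had the fifth smallest p of all genes. Klf6, a zinc finger factor of injured liver, rose by 2.59 (2.11 to 3.07), Jund by 1.25 and Egr1 by 2.24. The letters TGANTCA of the AP-1 site stood in 6.43% of the promoters of genes that rose and in 6.31% of all.

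Genes of detoxification rose in several families. NRF2 is the factor that switches on antioxidant and conjugating enzymes. Of 22 glutathione transferase genes 7 rose and 0 fell, with a median of 0.12, and of 24 other NRF2 targets 13 rose and 0 fell, with a median of 0.58. With 1 array left out, 7 or 8 of those 24 were called without H/A replicate 2, 3 or 4 or without WT replicate 3 or 4. The transferase gene Gsta2 read 9.73, 11.39, 12.52 and 12.2 in H/A and 7.73, 7.73, 7.09 and 7.22 in WT (4.02, interval 2.86 to 5.17, adjusted p = 0.000539), with H/A replicate 1 the lowest of its group and still above every WT mouse. Gsta1 rose by 4.21, and the probes of Gsta1 and Gsta2 may share targets. Gstm3 was among the most intense signals of the array, at 15.18 to 16.18 in H/A and 14.02 to 14.44 in WT, and rose by 1.45. Mgst3, a membrane-bound member, rose by 2.69. Among the NRF2 targets, the epoxide hydrolase gene Ephx1 rose by 1.00, Ugdh, which makes UDP-glucuronate, by 1.82, the heme oxygenase gene Hmox1 by 1.89 and the carbonyl reductase gene Cbr3 by 2.6 (2 of 4 WT arrays well above background). The letters TGACNNNGC of the antioxidant response element core stood in 4 of the 17 promoters of the members of both lists that rose (23.5%). The share was 14% among all promoters and 14.6% among those of all genes that rose. The letters TATAAA of the TATA box also stood in 4 of these 17, against 10.8% of all. Of 17 aldo-keto reductase genes 7 rose and of 17 aldehyde dehydrogenase genes 5, with 0 falling in either and medians of 0.26 and -0.04. In both families 3 were called without H/A replicate 2, without H/A replicate 3, without WT replicate 1 or without WT replicate 4. ABC transporter genes rose at 7 of 42 (16.7%, against 7.08% of all genes tested), with a family median of -0.01. Among them Abcb4, the phospholipid exporter of the bile canaliculus, stood at 12.7, 12.87, 12.39 and 12.74 against 11.41, 11.63, 11.51 and 11.54 (1.15, interval 0.86 to 1.44, adjusted p = 0.000197). The cholesterol exporter gene Abcg1 rose by 1.87 and Abcc4, an exporter of bile acids into blood, by 1.57 (0.48 for its other probe).

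Components of the cytoskeleton, of calcium-dependent membrane binding and of the lysosome rose in groups. Of 35 genes of actin and microtubules 18 rose and 0 fell (median 0.6), with 10 or 11 called without H/A replicate 2 or 3 or without WT replicate 1, 3 or 4. Tagln2, an actin-binding protein, read 10.7, 11.36, 11.3 and 11.38 in H/A and 9.11, 9.51, 8.25 and 8.86 in WT (2.25, interval 1.65 to 2.84, adjusted p = 0.000304), and Myh9, the gene of non-muscle myosin, rose by 1.09 (0.80 to 1.38). Krt8, the gene of the hepatocyte keratin 8, read 12.63, 13.69, 13.87 and 14.2 against 11.33, 11.67, 11.5 and 11.41 (2.13, interval 1.47 to 2.79). None of these overlapped between groups, and H/A replicate 1 was the lowest H/A mouse in both Tagln2 and Krt8. The annexin gene Anxa2, which binds membranes and actin, rose by 2.89 (2.19 to 3.58) and S100a11, the gene of a small calcium-binding protein, by 2.71, within a list of 17 annexin and S100 genes of which 9 rose. Cell junction genes rose at 9 of 26 (4 or 5 called without H/A replicate 2, 3 or 4 or WT replicate 3 or 4), with F11r, the gene of junctional adhesion molecule A, up by 1.12 and the tight junction scaffold gene Tjp1 by 0.86. Of 35 lysosomal genes 16 rose and 0 fell (median 0.5), with 9 called without H/A replicate 3 or without WT replicate 4. Hexa, a subunit of the enzyme that degrades gangliosides, rose by 0.86, Psap, the precursor of the activators of sphingolipid breakdown, by 0.78, the protease gene Ctsb by 0.67 and the progranulin gene Grn by 1.12.

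**Figure D4:**
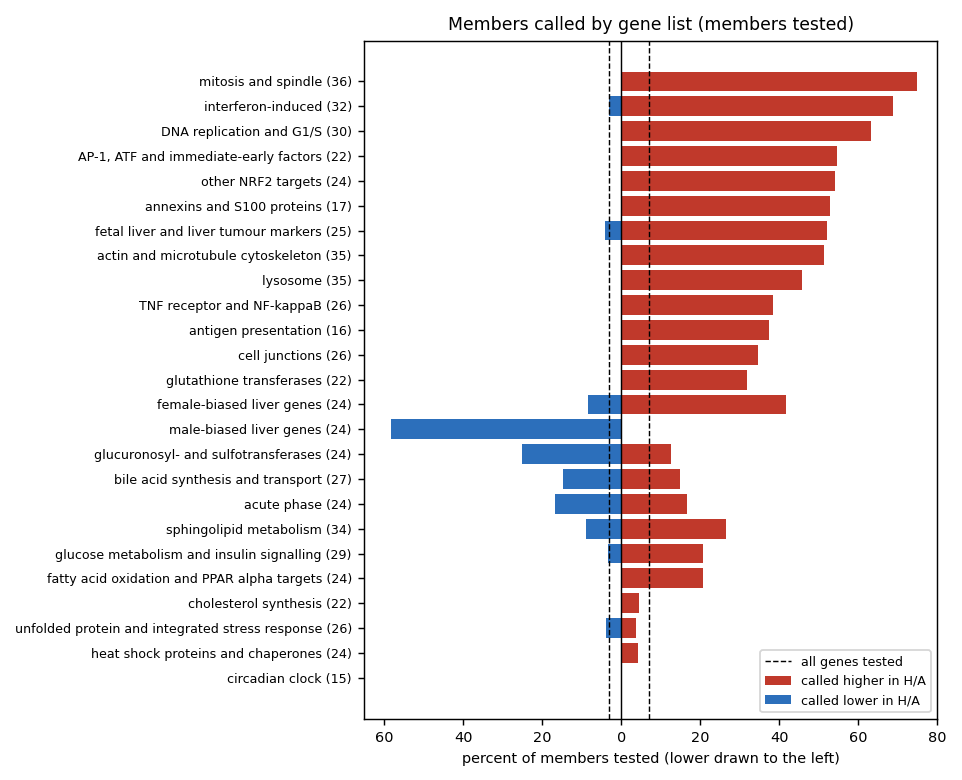
Share of the tested members of 25 gene lists (percent, horizontal axis) called higher (red, right) or lower (blue, left) in H/A, with the number tested in brackets. The dashed lines mark all genes, 7.08% higher and 2.97% lower. The mitosis list reaches 75.0% and the clock list has 0 calls among 15 genes.

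The largest falls were of genes that mouse liver expresses more in males than in females. Of 24 male-biased genes 14 fell and 0 rose, with a median of -2.20 against -0.09 over all genes. Their mean level was 9.63, 8.91, 7.52 and 9.96 in H/A and 11.69, 11.74, 11.09 and 11.78 in WT, with H/A replicate 3 the lowest. The median was -2.70 within slide 1 and -0.97 within slide 2, and -1.48 without H/A replicate 3, and 10 to 18 members fell with 1 array left out. Hsd3b5, the gene of a steroid dehydrogenase of male liver, read 6.26, 4.52, 5.43 and 5.78 in H/A and 12.29, 12.39, 11.2 and 12.67 in WT, a fold of 99.9 lower (-6.64, interval -8.64 to -4.65, adjusted p = 0.000712). The groups did not overlap. Hsd3b4, its neighbour in the family, was well above background on 0 H/A arrays and 4 WT arrays and was at least 8.28-fold lower by the probe used. Its 2 probes differed by -4.66 and -1.69. Serpina12, the gene of the secreted protease inhibitor vaspin, read 7.08, 6.61, 5.13 and 6.86 against 11.55, 11.48, 10.04 and 12.01 (-4.85, interval -6.31 to -3.39). Serpina4-ps1, a serpin pseudogene, fell by 8 and was well above background on 3 of 4 H/A arrays. Cyp7b1, the oxysterol hydroxylase of the acidic pathway of bile acid synthesis, read 7.17, 6.99, 7.24 and 7.34 against 10.29, 10.48, 9.79 and 10.81 (-3.16, interval -4.52 to -1.79, adjusted p = 0.00699), with the H/A mice close together. Selenbp2, a selenium-binding protein gene, fell by 1.44 (adjusted p = 0.000499).

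Other members differed between the H/A mice themselves. Mup3, the gene of a major urinary protein, read 9.53, 9.02, 5.06 and 11.07 in H/A and 14.03 to 14.24 in WT (-5.46, interval -7.37 to -3.54), -6.30 within slide 1 and -3.01 within slide 2. Elovl3, a fatty acid elongase gene, read 5.98, 4.67, 2.37 and 8.3 against 9.99 to 11.93 (-5.69, interval -8.45 to -2.93, adjusted p = 0.0136), -7.03 and -2.36 within the slides, and was well above background on 3 of 4 H/A arrays. In both genes H/A replicate 3 was lowest and H/A replicate 4 highest. All 8 Mup genes tested had a difference below 0 and 5 were called. Leaving out 1 array gave 1 call without H/A replicate 2, WT replicate 1, 3 or 4, Del replicate 4 or Flox replicate 3 or 4, 2 without H/A replicate 3, 3 without Del replicate 1 or 2 and 7 without H/A replicate 1. Their median was -3.37, -4.54 within slide 1 and -0.64 within slide 2, and their sequences are close enough for probes to share targets. The organic anion transporters, which take up bile acids and drugs, fell at 4 of 9 genes, among them Slco1a6 (-3.85, interval -5.56 to -2.13, well above background on 2 of 4 H/A arrays) and Slco1a4 (-1.25), whose family median was -0.57 and 0.01 without scaling. The sulfotransferase genes Sult5a1 (-3.67, -1.13 at the least over 3 probes) and Sult2a8 (-2.61) fell, within a list of 24 conjugating enzymes of which 6 fell and 3 rose (2 and 0 without WT replicate 4, 3 to 5 called without H/A replicate 2 or 3 or WT replicate 3). The median of that list was -0.35. Without scaling 2 of its members fell and 7 rose, with a median of 0.19.

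Of 24 female-biased genes 10 rose and 2 fell (median 1.09, 1.35 within slide 1 and 0.21 within slide 2), with 5 rising without WT replicate 4 and 7 called without H/A replicate 2 or 3 or WT replicate 3. The rises included genes of CYP3A enzymes, which oxidise steroids, bile acids and drugs. Cyp3a11 belongs to the same family but is not on the female-biased list. It was already intense in WT, at 13.15, 13.3, 13.51 and 13.14, and read 15.09, 15.26, 15.26 and 15.37 in H/A (1.97, interval 1.55 to 2.39, adjusted p = 5.65e-05). The groups were tight and apart. Cyp3a41a, Cyp3a44 and Cyp3a16 rose by 2.08, 2.03 and 2.03, and 5 of 9 genes of the family rose (median 1.97, 0.34 within slide 2 and 0.67 with normexp). The probes of Cyp3a41a and Cyp3a44 are close enough to share targets, and are printed with the letters that differ in capitals.
Cyp3a41a: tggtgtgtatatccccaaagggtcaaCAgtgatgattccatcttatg
Cyp3a44: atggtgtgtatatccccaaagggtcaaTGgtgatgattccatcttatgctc
Over the 47 bases in common, 2 differed. The other large P450 family went the other way. Of 46 CYP2 genes 0 rose and 15 fell (median -0.43), but without scaling 8 rose, 0 fell and the median was 0.1, and 6 to 9 were called without H/A replicate 3 or without WT replicate 1, 3 or 4. Cyp2c40 read 10.81, 10.97, 10.49 and 10.54 in H/A and 11.74, 12.06, 11.88 and 11.95 in WT (-1.20, interval -1.65 to -0.75, adjusted p = 0.00299), with no overlap, and its call was lost without scaling. Cyp2c40 is also on the female-biased list, among the 2 members that fell.

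In lipid metabolism, Acacb, the mitochondrial acetyl-CoA carboxylase that restrains fatty acid oxidation, read 8.51, 8.66, 8.18 and 8.74 in H/A and 10.03, 10.25, 10 and 10.22 in WT (-1.60, interval -2 to -1.21, adjusted p = 0.000197, and -0.39 for its other probe). It had the smallest p among named genes that fell. Scd2, a fatty acid desaturase, rose by 2.17 (1.54 to 2.81) and Acadm, the medium-chain dehydrogenase of fatty acid oxidation, by 0.90 (0.57 to 1.24). Among 24 PPAR alpha targets and oxidation enzymes 5 rose, but 1 or 2 were called without any 1 of the H/A replicates 1 to 3 or WT replicates 1, 3 and 4, and 3 without Flox replicate 2 or 3. Apoc2, the activator of lipoprotein lipase, rose by 0.86, and Plin3, a lipid droplet coat gene, by 0.99. Sphingolipid metabolism had 9 rises and 3 falls among 34 genes (median 0.22), and 5 (without WT replicate 4), 7 (without H/A replicate 2) and 19 (without WT replicate 2) were called with 1 array left out. Sptlc2, a subunit of the first enzyme of the pathway, read 6.98, 7.36, 7.36 and 7.41 in H/A and 6.01, 6.38, 5.54 and 5.65 in WT (1.38, interval 0.95 to 1.81, adjusted p = 0.000922), with no overlap.

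Some lists held fewer calls than the 10.1% of all genes. Limma called 0 of 15 clock genes, 0 of 73 cytosolic ribosomal protein genes, 2 of 82 respiratory chain genes, 1 of 24 heat shock genes and 2 of 26 genes of the unfolded protein response. Trib3, a pseudokinase induced by amino acid stress, was the member of the last list that rose (1.28, interval 0.82 to 1.74). Of 23 hepatocyte transcription factor genes 1 rose and 1 fell, and Hnf4a was at 11.61 to 11.98 in H/A and 11.66 to 11.99 in WT. Without WT replicate 2 the clock list held 3 calls, the ribosomal list 13 and the respiratory chain 9. The genes that flank Cers2 are not among the lists with fewer calls. Of these 20 genes in RefSeq order, 10 on each side, 15 were tested, 3 rose and 0 fell. Over all genes tested 7.08% rose and 2.97% fell. The 3 were Cdc42se1 (1.14, adjusted p = 0.00136), Ctsk (0.86, adjusted p = 0.0123) and Ctss (1.41, adjusted p = 0.0163). The values of Ctss overlapped between groups, and its call was lost without H/A replicate 3, without WT replicate 1 or without WT replicate 4. Ctss encodes cathepsin S, a protease of macrophages, and Ctsk cathepsin K.

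Small nucleolar RNAs, which guide the chemical modification of ribosomal RNA, were lower in H/A. Of 83 such genes 47 fell and 0 rose (56.6%), with a median of -0.90, -0.92 within slide 1 and -0.75 within slide 2. Both kinds took part, box H/ACA RNAs with 17 of 31 and box C/D RNAs with 31 of 51. These 2 kinds were grouped by gene symbol and do not match the 83 genes exactly. Their probes are given in the scanner files. Those of 4 members, chosen to show falls of different size, are printed, with the letters CTGA of a box D in capitals where they end the probe.
Snora16a: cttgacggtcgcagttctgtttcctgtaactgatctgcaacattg
Snora30: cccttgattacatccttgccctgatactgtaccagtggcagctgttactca
Snord104: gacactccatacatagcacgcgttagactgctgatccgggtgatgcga
Snord110: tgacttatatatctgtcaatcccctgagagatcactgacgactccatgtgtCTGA
Snora16a read 7.02, 8.24, 7.31 and 8.11 in H/A and 9.21, 9.34, 9.68 and 9.44 in WT (-1.75, interval -2.24 to -1.26, adjusted p = 0.000477). Snora30 read 5.6, 8.44, 4.22 and 8.78 against 10.63, 9.46, 10.37 and 10.42 (-3.46, interval -5.03 to -1.90), -3.96 within slide 1 and -1.61 within slide 2. In both, H/A replicates 1 and 3 were the lowest. Snord104 read 9.25, 9.61, 9.29 and 9.61 against 10.44, 10.37, 10.71 and 10.61 (-1.09, interval -1.39 to -0.79, adjusted p = 0.000403), and Snord110 fell by 0.81.

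The H/A mice did not share the fall evenly. The median of the 83 genes, relative to the mean of WT, was -1.47 in H/A replicate 1, -0.55 in H/A replicate 2, -1.29 in H/A replicate 3 and -0.59 in H/A replicate 4. In the same order 79, 58, 70 and 57 genes lay below all 4 WT values. Without scaling between arrays 10 genes fell and 1 rose, with a median of -0.46, so the calls of Snord104 and Snord110 were lost. With 1 array left out, 24 (without WT replicate 3 or without WT replicate 4) to 51 (without WT replicate 2) fell, and in the 2 groups alone 20 fell. Of 272 miRNA genes tested on the same arrays 17 fell and 0 rose (6 called without WT replicate 3 or 4, 7 to 9 without H/A replicate 2, 3 or 4, 29 without Del replicate 3 and 53 without WT replicate 2), with a median of -0.29. Without scaling the direction turned, as 8 miRNA genes rose and 2 fell, with a median of 0.15. Of 15127 protein-coding genes 1554 rose and 364 fell. A median near that of the miRNA genes was also seen in lncRNA genes (-0.26 over 1916) and olfactory receptor genes (-0.25 over 486). Of the lncRNA genes 29 rose and 77 fell (5.53% called, against 10.1% of all genes), and without scaling 134 rose and 6 fell. RNA length and the purification of short RNA were not measured per array, and their part in the falls of the small RNAs was not tested.

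**Figure D5:**
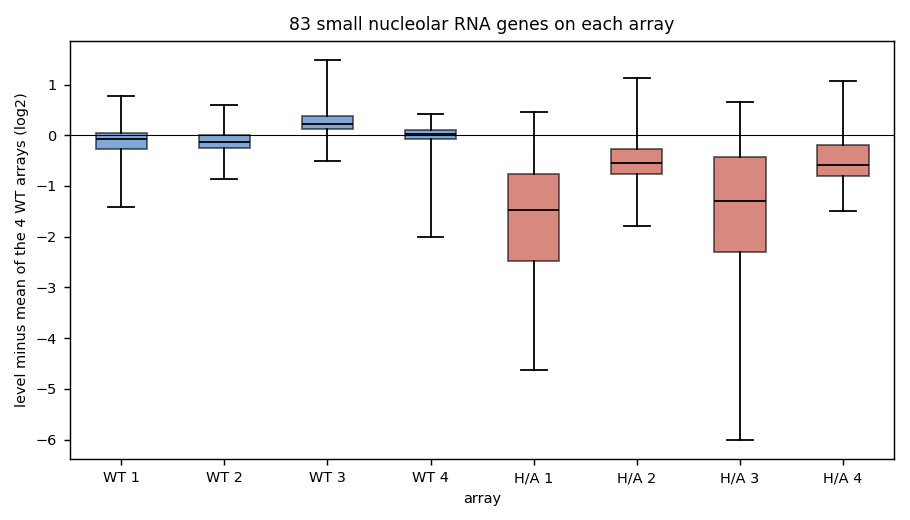
Level of 83 small nucleolar RNA genes minus each gene's mean over the 4 WT arrays (log2, vertical axis) on each array (horizontal axis). Boxes span the quartiles, black lines are medians and whiskers reach the lowest and highest gene, and H/A replicates 1 and 3 have the lowest medians (-1.47 and -1.29).

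The H/A mice differed among themselves in an ordered way at the called genes. H/A replicate 1 had the lowest of the 4 H/A levels at 72.2% of the 2230 genes called higher, and H/A replicate 3 the highest at 51.3%. WT replicate 2 had the highest WT level at 64.4% of them. Among the 936 genes called lower, H/A replicate 3 was the lowest H/A mouse at 43.2% and WT replicate 2 the lowest WT mouse at 50.5%. On the first principal component, with 45.4% of the variance, the H/A arrays lay from -74.7 to -17.89 and the WT arrays from 16.15 to 64.4.

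Set against the Del mice, H/A livers gave 4 calls among 31480 genes (0.0127%), with 2469 at an unadjusted p under 0.05. The 4 were Snord82 (1.04 higher in H/A), Ccdc24 (1.77 higher), Kif20b, a mitotic kinesin gene (0.98 lower), and 1 gene known only by its transcript identifier (1.85 higher). Each had an adjusted p of 0.0413, and they are named as a count of 5 or fewer, after their values were seen. Snord82 was also called against WT, where H/A was lower by 0.53, so that its level ran from 6.89 in WT through 6.36 in H/A to 5.32 in Del. Its call against WT was lost in 6 of 16 fits with 1 array left out. Leaving out 1 array gave 0 (without H/A replicate 1) to 7 (without H/A replicate 3) calls against Del. The comparison with Del shares the H/A arrays with that against WT. For Hsd3b5 the difference of H/A was 0.35 from Del and -6.64 from WT, and for Mup3 -1.93 and -5.46. A p that misses the threshold does not show that the 2 lines act alike.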

How the data were processed

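Liver RNA of 16 mice was labelled with Cy3 and hybridised to 1-colour Agilent arrays on 2 slides, per the labels' protocols. The deposited log2 values had been quantile normalised by the authors, as all columns share 1 distribution; the submitters' processing notes name Agilent Feature Extraction 11 and Partek. Scanner intensity values, background-subtracted per the file headers, gave the above-background marks and the alternatives. For 6 samples the listed scanner file belonged to another array, so files were paired by slide and position. The filter kept probes marked above background on 4 or more of the 16 arrays, and the most intense of them stood for its gene. H/A minus WT was fitted over all 16 arrays with limma 3.58.1 in R 4.3.3 (lmFit, eBayes; 31480 genes; called at Benjamini-Hochberg adjusted p under 0.05), and checked on simulated data. Intervals are 95%. "At least" folds set the higher group's mean against, per array, the lowest signal well above background or the dim probe's own signal, whichever was higher. Alternatives varied the scaling, background correction, filter, slide, moderation, probe rule and left-out arrays.

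Named genes were the 40 largest non-overlapping rises and falls, the 15 smallest p in each direction, the 6 smallest p of each list or family, cell type markers, genes on in 1 group and off in the other, the neighbours of Cers2, and genes among the 200 smallest p with a role described. The comparison, lists and rules were chosen with earlier results of these data known. Replicate numbers follow the order of deposit. Sequences are from RefSeq (GRCm38.p6) and the array files.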

Additional observations from a re-analysis of the deposited data

Results flagged for a closer look

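Of 248 gene and group pairs looked at, 14 had 1 mouse far from the other 3, and chance alone gives about 1 in 20. The mouse was WT replicate 2 in 8 of them, with levels above the other WT mice: Abcg1 7.59 (others 6.48 to 6.66), Ccdc24 4.2 (3.49 to 3.54), Ccl6 6.27 (5.01 to 5.22), Cd63 8.78 (7.82 to 7.98), Chaf1a 5.33 (4.74 to 4.79), Hmox1 7.9 (5.82 to 6.17), Nfkb2 7.64 (6.7 to 6.84) and Top2a 6.12 (3.78 to 4.14). H/A replicate 1 lay below the other H/A mice in Ephx1 (13.36 against 13.75 to 13.82), Sptlc2 (6.98 against 7.36 to 7.41) and Tagln2 (10.7 against 11.3 to 11.38). H/A replicate 3 lay low in Snord82 (6.07 against 6.42 to 6.48) and Ttr (15.99 against 16.25), and WT replicate 3 in Selenbp2 (12.45 against 13.33 to 13.38).

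Between the mutant lines, H/A minus Del differed by a test of the difference in Ccdc24 (1.77), Kif20b (-0.98), Snord82 (1.04) and 1 transcript without a symbol (1.85).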

How the results depend on the processing

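Against WT, 3166 genes were called. The count was 9542 without scaling between arrays, 1826 with the 2 groups alone, 13461 with array weights (42.2% higher), 14 within slide 1 and 626 within slide 2, and 1450 (without WT replicate 4) to 8021 (without WT replicate 2) with 1 array left out. The cause was not tested, except that the fits within slides and of 2 groups use fewer arrays. Against Del, 4 genes were called, 0 with the 75th percentile, normexp, the stricter filter, the slide as a block or the 2 groups alone, 1 without the filter, 34 without scaling, 75 within slide 1, 262 within slide 2, 2 with trend and robust moderation, 9 with array weights and 0 to 7 with 1 array left out. Without H/A replicate 3 and WT replicate 2, an alternative chosen after seeing the data, 3262 genes were called against WT and 1 against Del.

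Of 118 named genes called against WT, 0 changed sign under any alternative and 116 were called in all 16 fits with 1 array left out. They were named largely by the size or p of their differences in these same data, which favours such counts. Of all 3166 called genes, 1211 were called in all 16 fits. Of the 118 named genes, 118 were called with the slide as a block, 118 with normexp, 117 with the 75th percentile (not C3), 115 with the 2 groups alone and 113 without scaling. Within slide 1, with fewer arrays, 3 of the 118 were called. Normexp made 43 of the differences over 1.5 times smaller. Genes not called that changed sign were Alb (-0.14) and Ttr (-0.28) with the 75th percentile, Hnf4a (0.01 with it, 0.50 without scaling, 0.14 within slide 2), Tyrobp (0.15 without scaling) and Ccdc24 (0.22 without scaling, 0.05 within slide 2, and -0.25 to 0.06 with 1 array left out). No paired analysis was possible because the labels give the mice no shared numbers beyond array positions. Signals near background limit the smallest levels. A bound is given where no array of a group was well above background, and a fitted difference where only some were, such as Fndc10, Ubd and Slco1a6, rests in part on values at background.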
